A study of Rattus norvegicus with 4 samples.

Results

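The major histocompatibility complex (MHC) genes of the rat, whose symbols start with RT1, were followed through single cells of the subcutaneous fascia of the abdominal midline, together with the genes that load peptides onto MHC molecules. The members were every row whose symbol starts with RT1- and the rows Cd74, Ciita, B2m, Tap1, Tap2, Tapbp, Psmb8, Psmb9, Nlrc5 and Ctss, which gave 40 of 30560 gene rows. The 33 rows with 50 or more unique molecular identifiers (UMIs, counted RNA molecules) over the 4 libraries were kept. They are 5 class II chain rows, 4 class II exchange factors, 3 class II partners, 14 class I rows and 7 class I partners. The 7 rows left out were class I rows with 0 to 7 UMIs each, namely both RT1-S2 rows, RT1-M5, RT1-M1-4, RT1-M6-2, RT1-M1-2 and RT1-T18. An RT1-A row was not analysed here.

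All rats had a dysentery brought on with Salmonella, and by title there were 2 libraries from rats left at that (dysentery 1 and dysentery 2) and 2 from rats then given acupuncture (acupuncture 1 and acupuncture 2). No library of healthy rats was analysed here, and the labels give no strain, age or animal for a library. P-values therefore measure only the spread between these libraries, which may be technical. In the treatment field of the labels every library carries the name of the other group, and the directions below follow the titles.

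Class II molecules are pairs of an alpha and a beta chain (RT1-Da with RT1-Db1, RT1-Ba with RT1-Bb) that show peptides from engulfed material to helper T cells. They are typical of dendritic cells, B cells and activated macrophages. Cd74, the invariant chain, holds their groove shut until cathepsin S (Ctss) trims it, RT1-DM then swaps its remnant for a peptide, and RT1-DO restrains RT1-DM. Ciita is the factor that switches these genes on. Class I molecules pair with B2m on nearly every cell and show peptides that the immunoproteasome (Psmb8, Psmb9) cuts and the Tap1 and Tap2 transporter carries in, under the factor Nlrc5.

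Promoters of class II genes are known for an X box and, downstream, a Y box, whose spacing is conserved. The 300 bases around each start (250 before to 50 after) were taken from the RefSeq promoter table for build GRCr8, in which 28 of the 33 members had an entry. RT1-CE14, RT1-M2, RT1-DMb, Ciita and Nlrc5 had no entry. The letters AGCAAC, the core of the X box, were found on either strand in 14.7% of all 33469 promoters and the letters ATTGG, the core of the Y box, in 37.5%. AGCAAC followed on the same strand by ATTGG within 40 bases, with no overlap of the pair, was found in 187 promoters (0.559%). Among the members this pair was present in 5 of 8 promoters of class II chains and exchange factors, in 0 of 2 of class II partners, in 0 of 12 of class I rows and in 0 of 6 of class I partners. The 5 were RT1-Da, RT1-Db1, RT1-Db2, RT1-DOa and RT1-DOb. Of these, 4 are printed 5′ to 3′ on the gene's strand, to show a shared arrangement in genes whose cell patterns turn out to differ, with the letters of the pair in capitals. They lie at chr20:4515165-4515464 on the plus strand (RT1-Da) and, on the minus strand, at chr20:4560113-4560412 (RT1-Db1), chr20:4541546-4541845 (RT1-Db2) and chr20:4758374-4758673 (RT1-DOa).
RT1-Da: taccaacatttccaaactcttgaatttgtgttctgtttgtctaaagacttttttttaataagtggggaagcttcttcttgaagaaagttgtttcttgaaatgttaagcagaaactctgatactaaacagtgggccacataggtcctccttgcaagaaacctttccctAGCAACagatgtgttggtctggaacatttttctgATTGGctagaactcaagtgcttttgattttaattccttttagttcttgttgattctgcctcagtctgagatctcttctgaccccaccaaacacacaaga
RT1-Db1: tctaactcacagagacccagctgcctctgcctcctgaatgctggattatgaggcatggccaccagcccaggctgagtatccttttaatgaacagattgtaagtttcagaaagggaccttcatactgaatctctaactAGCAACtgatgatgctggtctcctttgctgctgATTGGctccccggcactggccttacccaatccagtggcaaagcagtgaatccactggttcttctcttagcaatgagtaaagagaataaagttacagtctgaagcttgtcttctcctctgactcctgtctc
RT1-Db2: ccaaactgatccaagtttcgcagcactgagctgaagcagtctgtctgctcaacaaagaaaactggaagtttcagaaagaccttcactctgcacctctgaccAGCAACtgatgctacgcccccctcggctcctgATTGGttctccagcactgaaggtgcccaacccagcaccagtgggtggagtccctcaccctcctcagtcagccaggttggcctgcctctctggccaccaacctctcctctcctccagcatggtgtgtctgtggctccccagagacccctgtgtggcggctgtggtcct
RT1-DOa: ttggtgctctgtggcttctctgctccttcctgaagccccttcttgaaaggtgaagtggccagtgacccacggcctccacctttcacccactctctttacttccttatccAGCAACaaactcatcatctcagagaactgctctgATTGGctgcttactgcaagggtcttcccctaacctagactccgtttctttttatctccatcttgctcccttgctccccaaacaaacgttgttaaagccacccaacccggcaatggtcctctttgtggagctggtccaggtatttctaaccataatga
The first base of AGCAAC lay 83 bases before the start in RT1-Da, 113 in RT1-Db1, 149 in RT1-Db2 and 141 in RT1-DOa. The bases between the pair numbered 28, 27, 26 and 28 in the same order. A match of letters is a description of the sequence, not of binding.

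The 4 libraries held 38282 cell barcodes and 53066666 to 93897006 UMIs each, with medians of 5539 to 8758 UMIs per cell, and any pair of libraries shared 19 to 32 barcodes. After removal of poor cells and called doublets 32397 cells were kept, of which 27174 fell into 1 class by marker genes and 5223 into none (591 met several gates, 4632 none). No member was a gate marker. Fibroblasts, named for collagen genes and Pdgfra, made up 41.9% to 60.5% of kept cells. The macrophage class (C1qa, Cd163, Mrc1 and others) made up 24.01% and 27.5% in acupuncture but 8.95% and 10.9% in dysentery, and the dendritic class 1.88% to 4.45%. One library stands apart: acupuncture 1 had little RT1-Bb relative to RT1-Ba and little Psmb9 relative to Psmb8 in every class examined, as described below.

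Class II RNA was concentrated in the dendritic class. Levels are CPM, the share of all UMIs of the class in a library, scaled to 1000000 UMIs. The 5 class II chain rows together reached 40139 and 55598 CPM in the dendritic cells of acupuncture 1 and 2, and 61174 and 62575 in those of dysentery 1 and 2. In the macrophage class they reached 5572 and 10917 CPM in acupuncture against 25664 and 31547 in dysentery. In B cells they stood at 13716 and 12952 against 13863 and 4890, and in monocytes at 4517 and 6258 against 6194 and 11584. Acupuncture thus lay below dysentery with no overlap in the dendritic and macrophage classes, while B cells and monocytes overlapped. The dendritic class pools 3 gates, and within it type 1 cells (44145 and 63575 against 63419 and 66603 CPM) and mature cells (13308 and 44834 against 35305 and 59157) overlapped between groups. Type 2 cells, at 41653 and 53392 against 62019 and 61575, did not. These sums include RT1-Bb, which was low in acupuncture 1. Without it the dendritic class had 39860 and 47711 against 52690 and 53775 CPM. The macrophage class then had 5538 and 9527 against 22441 and 27145.5. Type 1 cells then had 43879 and 54820 against 54824 and 57394 and no longer overlapped, though narrowly. The type 1 marker list summed to 570 and 785 against 1089.5 and 852 CPM in the dendritic class. Of its 10 genes 5 were lower in both acupuncture libraries, next to 4 of 10 in the fibroblast list. The part of this makeup was not tested. Fibroblasts, which should lack class II, had 256 and 349 against 1017 and 329 CPM, where dysentery 1 was the high library. T cells, NK cells and endothelial cells ranged from 90.4 to 1668 CPM. Between 41.4% and 60.2% of class II chain UMIs lay in cells of no class, which were 11.4% to 20.4% of the cells, and these unclassed cells had 23611 and 34756 CPM in acupuncture and 37261 and 55124 in dysentery. So the classes describe only a part of the class II RNA of this tissue.

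**Figure D1:**
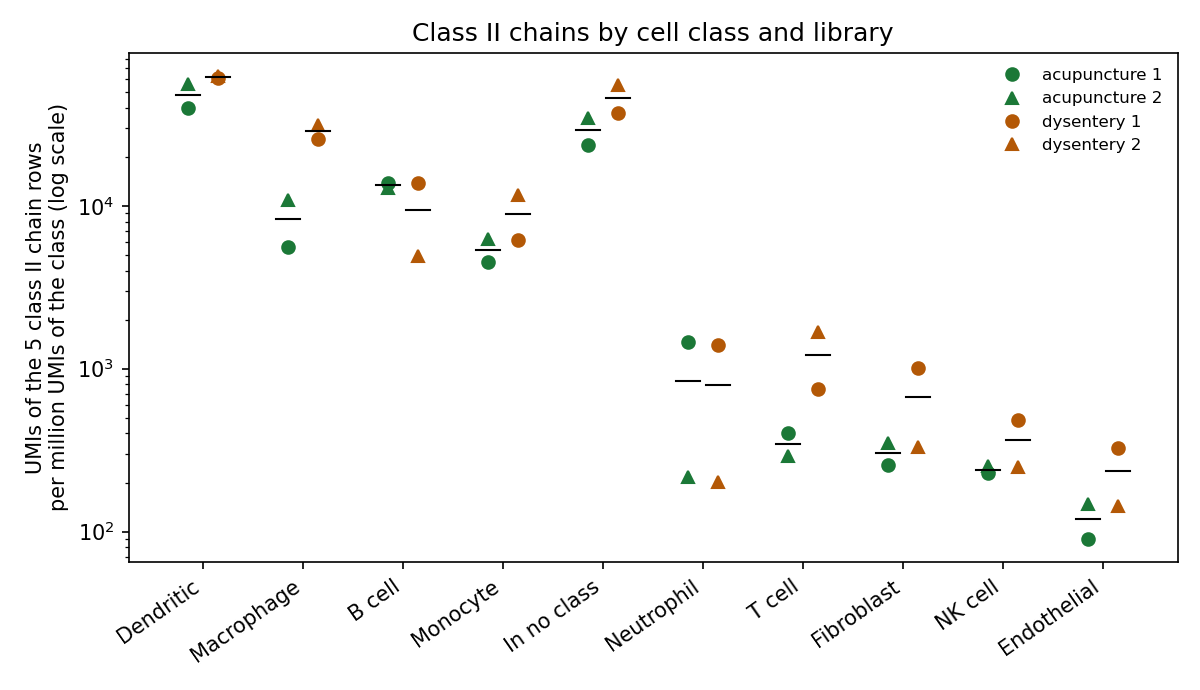
Summed level of the 5 class II chain rows (CPM within the class, log scale) in each cell class, with 1 point a library (circle or triangle for replicate 1 or 2) and a short bar at the group mean. Dendritic cells lie highest in all 4 libraries, and the macrophage class shows the 2 acupuncture libraries (5572 and 10917) below the 2 dysentery libraries (25664 and 31547).

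Against fibroblasts, the macrophage class was higher for every class II member tested. Tests between classes used edgeR's quasi-likelihood test on UMIs summed per library and class, with library as a block and Benjamini-Hochberg adjustment over all genes. They called 27 of 32 members, 20 higher and 7 lower, where 66.7% of all genes were called (30.3% higher, 36.4% lower). The difference in log2 level was 5.24 ± 0.36 (SE) for Cd74 (adjusted p = 1.02e-05), 4.28 ± 0.26 for Ciita and 7.12 ± 0.30 for Ctss. For the exchange factors RT1-DMa and RT1-DMb it was 5.90 and 5.84. The median over the 5 class II chains was 5.15, against -0.08 over all genes. Among class I rows 6 were higher and 4 lower, with RT1-CE11 higher by 2.24 and RT1-S3 lower at -0.84. RT1-M2, a little known class I row of 153 UMIs in all, was higher by 5.99 ± 0.57 in the macrophage class.

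Dendritic cells exceeded the macrophage class for most of the class II machinery, and not to the same degree for each gene. There 19 of 30 members were called, 16 higher and 3 lower, where 45.9% of all genes were (22.0% higher, 23.9% lower). The difference was 1.82 ± 0.28 for RT1-Da (adjusted p = 0.0012), 1.92 for RT1-Db1, 2.08 for RT1-Ba, 2.03 for RT1-Bb and 1.74 for Cd74. It was 2.52 ± 0.27 for Ciita, 3.11 ± 0.30 for RT1-DOa and 3.40 ± 0.35 for RT1-DOb, but 0.67 ± 0.11 for RT1-DMa and 0.91 ± 0.11 for RT1-DMb. Ctss was lower in dendritic cells at -1.29 ± 0.15, and so was RT1-Db2 at -2.17 ± 0.14. All these passed the adjusted threshold of 0.05. Among class I partners Nlrc5 (1.37), Psmb8 (1.22), Tap1 (1.08) and Psmb9 (0.99) were higher, while B2m was at -0.05 (adjusted p = 0.66).

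B cells differed from the macrophage class in the exchange factors. Of 30 members 10 were called, 5 in each direction, where 36.0% of all genes were (14.4% higher, 21.6% lower). RT1-DOb (3.14 ± 0.51) and RT1-DOa (2.20 ± 0.42) were higher in B cells, and RT1-DMa (-2.29 ± 0.26), RT1-DMb (-1.34 ± 0.23) and Ctss (-2.38 ± 0.22) were lower. None of the 5 class II chains passed, with differences from -0.90 to -0.52. The RT1-DO sum was 165 and 135 CPM in the B cells of acupuncture and 162 and 30.5 in those of dysentery. The RT1-DM sum there was 610 and 480 against 637 and 176. Dysentery 2 was the low B cell library on both, and 10.5% of its 38 B cells had no class II chain UMI when thinned to 2000 UMIs, against 0% to 0.775% in the other libraries. The B cell marker list, which includes the antibody gene Ighm, summed to 55396 CPM in the B class of dysentery 2 and to 2987 to 6105 in the others, and its part in these values was not tested.

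RT1-Db2, the other beta chain row of the RT1-D pair, did not follow the other chains from class to class. It stood at 45.7, 45.1, 48.9 and 35.5 CPM in the macrophages of acupuncture 1, acupuncture 2, dysentery 1 and dysentery 2, and at 9.11, 7.96, 11.7 and 8.67 in dendritic cells. In T cells it stood at 27.8, 37.1, 31.6 and 31.0, and in fibroblasts at 1.29 to 2.72. All 4 libraries show the same order. T cells exceeded fibroblasts by 3.96 ± 0.21 for RT1-Db2 (adjusted p = 1.55e-07), against -0.14 ± 0.45 for RT1-Da (adjusted p = 0.80). Its promoter, printed above, holds the same pair of letters as those of RT1-Da and RT1-Db1. RT1 rows include near-identical copies between which reads can be split, so values of single RT1 rows are uncertain.

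In the macrophage class the central class II genes were lower in acupuncture. There 5 of 31 members were lower and 0 were higher, where 3.68% of all genes were called (2.52% higher, 1.16% lower). Again edgeR's quasi-likelihood test was used, adjusted over all genes of the class. Cd74 measured 4565 and 7033 CPM in acupuncture against 15674 and 18276 in dysentery, a log2 change of -1.42 ± 0.23 (SE; adjusted p = 0.039). RT1-Da measured 2448 and 3876 against 8803 and 11433 (-1.55 ± 0.26, adjusted p = 0.040). RT1-Ba measured 1209 and 1789 against 4431 and 5081 (-1.54 ± 0.22, adjusted p = 0.030). In each of these 3 genes every acupuncture library lay below every dysentery library, which for called genes adds no support.

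The factor Ciita fell as well, from 22.6 and 19.6 CPM in dysentery to 7.49 and 8.89 in acupuncture (-1.23 ± 0.18, adjusted p = 0.030). RT1-DOa fell from 28.7 and 32.5 to 7.49 and 12.0 (-1.52 ± 0.25, adjusted p = 0.036). RT1-Db1 measured 1836 and 3817 against 9159 and 10596 and did not pass (-1.68 ± 0.34, adjusted p = 0.058). RT1-Bb measured 33.7 and 1390 against 3222 and 4402 (-2.30 ± 1.35, adjusted p = 0.37), with acupuncture 1 far below acupuncture 2. The exchange factors RT1-DMa (-0.47, adjusted p = 0.14) and RT1-DMb (-0.50, adjusted p = 0.079) did not pass. Ctss was at 2357 and 2255 against 2455 and 2439 CPM (0.04 ± 0.12), and RT1-Db2 had a change of 0.24 ± 0.16. RT1-DMa UMIs numbered 37.9 and 22.4 per 100 RT1-Da UMIs in acupuncture and 13.96 and 13.02 in dysentery, whereas RT1-Ba UMIs numbered 44.4 to 50.3 in all 4 libraries. The 14 class I rows had 0 calls among 13 tested, with a median change of -0.13, and the class I partners 0 among 6.

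These 5 calls rest on few libraries: the count was 0 without acupuncture 1 (5 lost), 2 without acupuncture 2 (the 5 lost), 9 without dysentery 1, 0 with called doublets kept and 0 with the replicate number as a block. In those settings the 5 changes stayed between -1.10 and -1.93, and DESeq2 called 8 members.

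**Figure D2:**
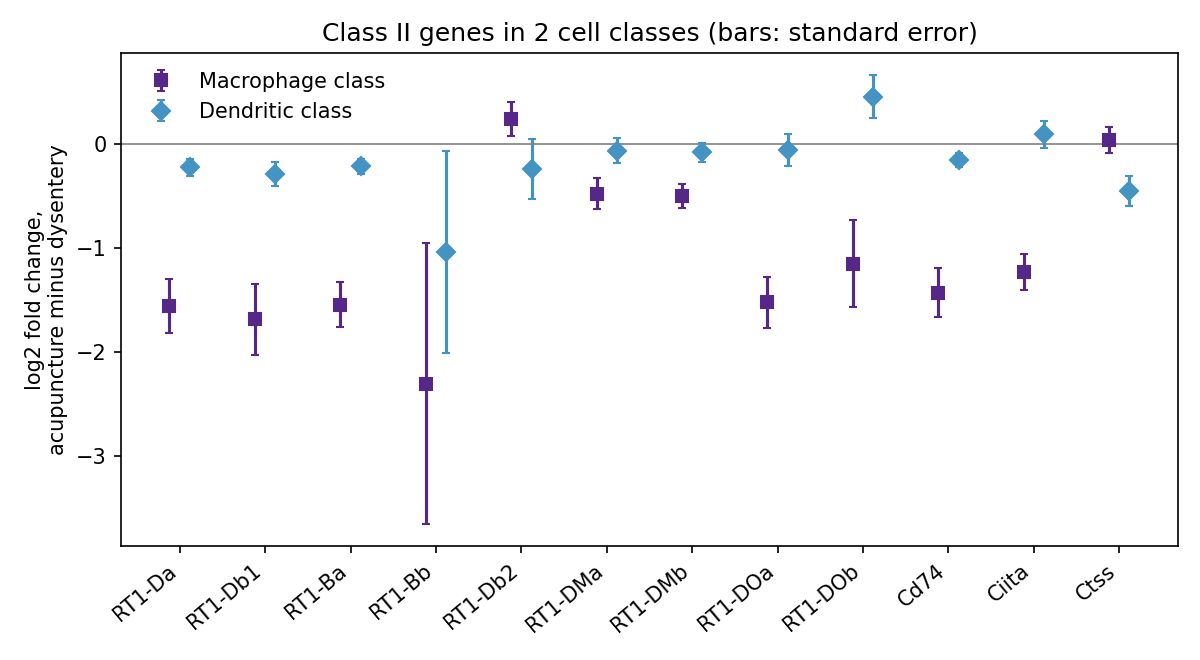
Log2 change (acupuncture minus dysentery, with its standard error) of 12 class II members in the macrophage class (squares) and the dendritic class (diamonds). In macrophages RT1-Da, RT1-Ba, RT1-DOa, Cd74 and Ciita lie between -1.55 and -1.23, while the dendritic values of these genes lie between -0.22 and 0.10.

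The shares of macrophage-class cells with a Cd163 or a Ccr2 UMI differed between groups. Cells without a UMI of the macrophage receptor Cd163 were 10.4% and 11.5% of the class in acupuncture and 45.8% and 42.0% in dysentery. Cells with a UMI of Ccr2, a receptor of recently arrived monocytes, were 7.95% and 12.0% against 22.3% and 36.8%. The class II chains reached 27235, 41983, 39041 and 57384 CPM in the Cd163-negative cells of acupuncture 1, acupuncture 2, dysentery 1 and dysentery 2, but 2834, 6931, 13393 and 8128 in the Cd163-positive cells. In the cells with Ccr2 they reached 32564, 48589, 49941 and 61501, and in those without it 2323, 5022, 16706 and 6907. High levels thus go with the absence of Cd163 and the presence of Ccr2 in every library. The groups overlapped among the Cd163-negative cells and did not overlap in the other 3 kinds of cell. These splits were chosen after the values were seen and are given without a test. The shares were not thinned to equal depth. Over the whole class Cd163 stood at 750 and 816 CPM in acupuncture against 413.5 and 556 in dysentery. A change in the kinds of cell and a change in the RNA of these genes cannot be told apart here.

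The monocyte marker list summed to 118 and 121 CPM in the macrophage class of acupuncture and to 363 and 436 in dysentery. Of its 10 genes 7 were lower in both acupuncture libraries. So were 7 of 10 of the fibroblast list (444 and 564.5 against 965 and 797 CPM in sum) and 6 of 8 of the NK list. In the macrophage list 0 of 10 were, and the share over all genes was not counted. The list of dendritic cell type 2 summed to 3404 and 2808 against 2083 and 2751, with Ffar2 and Cd209a at 0 in all 4 libraries. Most of that sum was Clec10a, at 3305 and 2695 against 1879 and 2497 CPM. By contrast 4 of its 10 genes (Flt3, Zbtb46, Irf4 and Napsa) were lower in both acupuncture libraries, with Napsa at 46.4 and 63.8 against 146 and 183 CPM. The Cd163-positive macrophages with no UMI of Napsa or of the dendritic cell receptor Flt3 were therefore tested alone, a choice made after seeing the data. They numbered 1583 and 1926 cells in acupuncture and 264 and 548 in dysentery. Their Cd74 level was 2003 and 3603 against 6999 and 3471 CPM, so that acupuncture 2 lay above dysentery 2 (-0.73 ± 0.33, adjusted p = 0.23). Their class II chains stood at 1980 and 4733 against 9802 and 4256, which also overlap. Of 29 members only RT1-S3 was called there (0.79 ± 0.15, adjusted p = 0.016), at 236 and 176 against 131 and 138 CPM, among 830 calls in 10700 genes. Whether the class's makeup had a part in the lower class II level was not tested beyond this.

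Per cell, class II was spread unlike in dendritic cells. With each cell thinned to 2000 UMIs, 60.6% and 47.2% of the macrophage class had no class II chain UMI in acupuncture, against 16.5% and 31.2% in dysentery. The median was 0 and 1 UMI against 40 and 10.5. The highest 10% of cells began at 43 and 93 UMIs in acupuncture and 132 and 150 in dysentery. Dendritic cells had medians of 84 and 115 against 127 and 128. These counts include RT1-Bb, which was low in acupuncture 1, and its part in them was not tested. Thinning left out 16 to 47 macrophages and 0 to 2 dendritic cells a library.

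**Figure D3:**
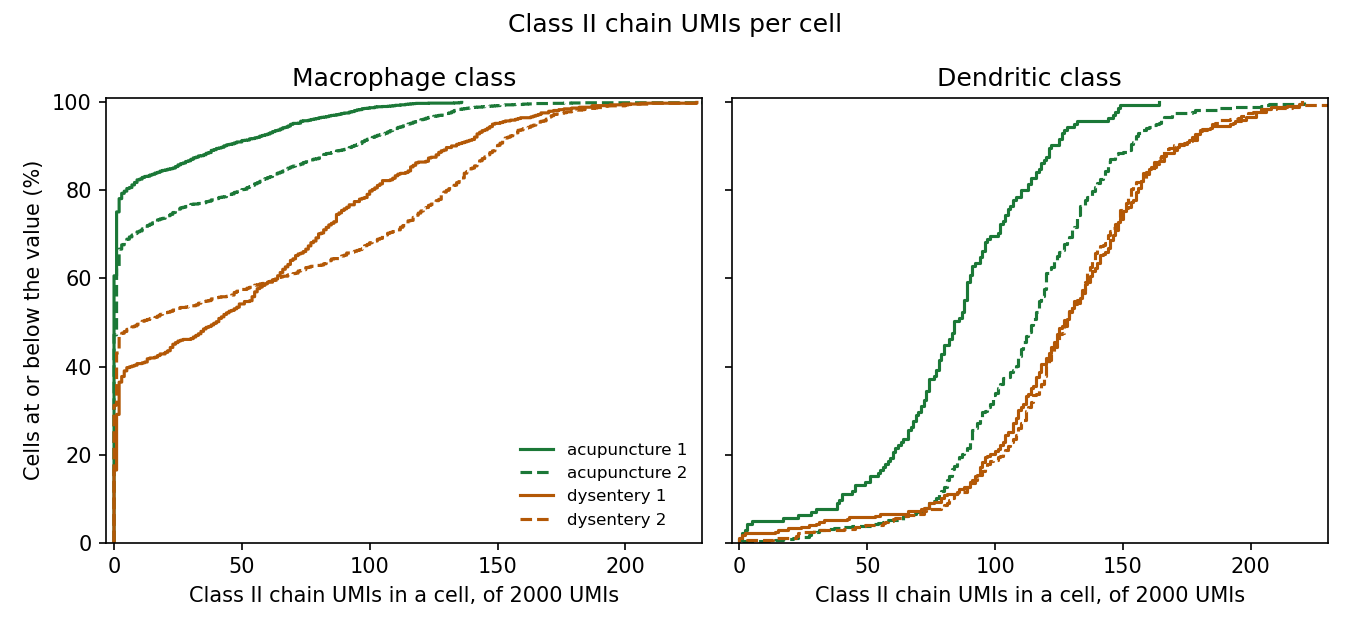
Share of cells (%) at or below each number of class II chain UMIs, with every cell thinned to 2000 UMIs, 1 line a library. In the macrophage class the curves start high at 0 (60.6% and 47.2% of cells in acupuncture, 16.5% and 31.2% in dysentery), whereas nearly all dendritic cells carry class II UMIs.

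A Cd74 UMI was found in 36.6% and 47.6% of thinned macrophages of acupuncture (95% exact binomial intervals 34.4% to 38.9% and 45.6% to 49.7%). In dysentery it was found in 81.0% and 66.0% (77.4% to 84.2% and 63.0% to 68.9%). The intervals cover counting error only. Fibroblasts, which should lack Cd74, gave 11.4% and 13.9% against 37.3% and 18.5%, at median depths of 7398 and 9559 against 7706 and 6771 UMIs. Macrophage depths were 8378 and 10137 against 7062 and 6525. Dysentery 1 was thus the highest library in both classes. In fibroblasts Cd74 UMIs numbered 172 to 178 per 100 RT1-Da UMIs in all 4 libraries, next to 155 to 179 over all kept cells. Without thinning the macrophage shares were 56.7% and 72.5% in acupuncture and 92.7% and 77.7% in dysentery.

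In dendritic cells 0 of 30 members were called by edgeR's quasi-likelihood test, where 7.18% of all genes were (5.47% higher, 1.70% lower). At an unadjusted p under 0.05 there were 9, and DESeq2 called 0. Cd74 measured 28130 and 30680 CPM in acupuncture against 33347 and 33759 in dysentery (-0.15 ± 0.07, adjusted p = 0.24). RT1-Da measured 16159 and 18333 against 19995 and 21315 (-0.22 ± 0.08, adjusted p = 0.16). Ciita measured 75.5 and 70.8 against 74.3 and 65.8 (0.10 ± 0.13). Cd74 and RT1-Da did not overlap between groups, while Ciita did.

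The difference between both classes was tested as an interaction of group and class. By edgeR's quasi-likelihood test 7 of 30 members were called, all with a more negative change in macrophages than in dendritic cells, where 1.97% of all genes were called (1.33% in that direction). The change in dendritic cells minus that in macrophages was 1.29 ± 0.17 for Cd74 (adjusted p = 0.0052), 1.35 ± 0.17 for RT1-Da and 1.34 ± 0.17 for RT1-Ba. It was 1.46 ± 0.19 for RT1-Db1, 1.47 ± 0.20 for RT1-Bb, 1.46 ± 0.19 for RT1-DOa and 1.31 ± 0.19 for Ciita, with adjusted p of at most 0.0078 in all 7. RT1-Bb was low in acupuncture 1 in both classes. The same 7 passed in each of the 7 alternatives run, except Ciita when 1 more marker was required (adjusted p = 0.12). Called doublets kept, the replicate block and the Cd163-positive cells alone, in which the macrophage calls were lost, were not run for this difference. The macrophage class also differed between groups in the Cd163 and Ccr2 shares given above. Whether its makeup had a part in this difference was not tested. The macrophage change differed from the fibroblast change for 0 of 32 members by edgeR's test, where 0.110% of all genes were called (0.0660% higher, 0.0440% lower). There 4 members were under an unadjusted p of 0.05, DESeq2 called 0, and 9 members passed without dysentery 1.

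T cells had lower class II RNA in acupuncture, and in dysentery 2 most of it lay in a few cells. Of 27 members 6 were lower and 0 higher, where 2.68% of all genes were called (2.03% higher, 0.644% lower). Cd74 measured 173 and 130 CPM in acupuncture against 407 and 811 in dysentery (-1.995 ± 0.286, edgeR adjusted p = 0.0095). RT1-Da measured 81.8 and 63.6 against 211 and 536 (-2.34 ± 0.37, adjusted p = 0.014), and RT1-Db1 193 and 121 against 303 and 586 (-1.49 ± 0.30, adjusted p = 0.035). Dysentery 2 was the highest library for these 3 genes. RT1-Bb measured 1.30 and 19.1 against 73.9 and 219 (-3.76 ± 0.71, adjusted p = 0.026), and RT1-DMa 29.6 and 23.6 against 65.0 and 89.8 (-1.52 ± 0.20, adjusted p = 0.0071). RT1-Bb was low in acupuncture 1 in every class examined. In T cells its UMIs numbered 1.31 and 38.2 per 100 RT1-Ba UMIs in acupuncture, against 55.3 and 73.6 in dysentery. In dysentery 2, 5 of 348 T cells held 75.7% of the class II chain UMIs (2728 of 3604), and in dysentery 1, 5 of 517 held 32.4%. In acupuncture the 5 highest cells held 17.4% and 10.9%. With those UMIs left out the class II chains stood at 333 and 259 against 510 and 406 CPM, compared with 403 and 291 against 754 and 1668 before. Fibroblasts, which should lack class II, had 256 and 349 against 1017 and 329 CPM. T cells minus fibroblasts was -0.02 ± 0.38 for Cd74 and -0.14 ± 0.45 for RT1-Da, neither called by edgeR's test. Whether this RNA came from the T cells themselves was not tested. With 1 fewer marker required of every gate, 1 member was called in T cells, and with called doublets kept, 2. The T class includes cells that also passed the NK gate. Its NK marker list summed to 1952 and 949.5 CPM in acupuncture against 3097 and 2532 in dysentery. The part of this makeup in the T cell changes was not tested.

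Psmb9, an immunoproteasome subunit, was the T cell call that held in 12 of 12 alternatives. It measured 235 and 308 CPM in acupuncture against 533 and 510 in dysentery (-0.93 ± 0.14, edgeR adjusted p = 0.013). Psmb10, the third inducible subunit and no member, fell with it, at 202 and 213 against 322 and 323 CPM (-0.62 ± 0.11, adjusted p = 0.023). Psmb8 measured 643 and 535 against 739 and 721 (-0.30 ± 0.12, adjusted p = 0.24). Psmb9 UMIs numbered 36.5 and 57.5 per 100 Psmb8 UMIs in acupuncture and 72.2 and 70.7 in dysentery. Acupuncture 1 was low in this ratio in every class examined, and the cause was not tested. Over the 12 alternatives, which include leaving out acupuncture 1, the Psmb9 change ranged from -1.16 to -0.74. B2m measured 10364 and 10967 against 10817 and 11287 (-0.04 ± 0.09). Psmb8 and Psmb9 do not overlap between groups, while B2m does.

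Class I RNA was highest in endothelial cells. The 14 class I rows summed to 3364 and 3100 CPM in the endothelial cells of acupuncture and 4228 and 4078 in those of dysentery. Fibroblasts had 1183 and 1321 against 1585 and 1534, T cells 1299 and 1459 against 1839 and 1708, and NK cells 942 and 1129 against 1666 and 1695. The macrophage class had 992 and 1076 against 1475 and 1034, and neutrophils, alone among these, lay higher in acupuncture at 1700 and 2302 against 1415 and 1656. Between endothelial cells and fibroblasts 23 of 28 members were called, 17 higher in endothelial cells and 6 lower, where 42.4% of all genes were called (16.9% higher, 25.5% lower). Of the class I rows 11 of 13 were higher and 0 lower, with a median of 1.54, and all 6 class I partners tested were higher. RT1-T24-4 (3.54 ± 0.22), RT1-CE11 (3.34 ± 0.24) and Nlrc5 (3.18 ± 0.34) led, and RT1-CE1 was higher by 1.18 ± 0.13. The class II chains RT1-Da, RT1-Db1, RT1-Ba and RT1-Bb were lower than in fibroblasts, from -1.78 to -1.68. Both classes hold little class II RNA. The 5 highest fibroblasts held 39.0% and 36.0% of their class's chain UMIs in acupuncture and 23.2% and 24.9% in dysentery. Endothelial cells had only 52 and 147 chain UMIs in acupuncture and 117 and 84 in dysentery.

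**Figure D4:**
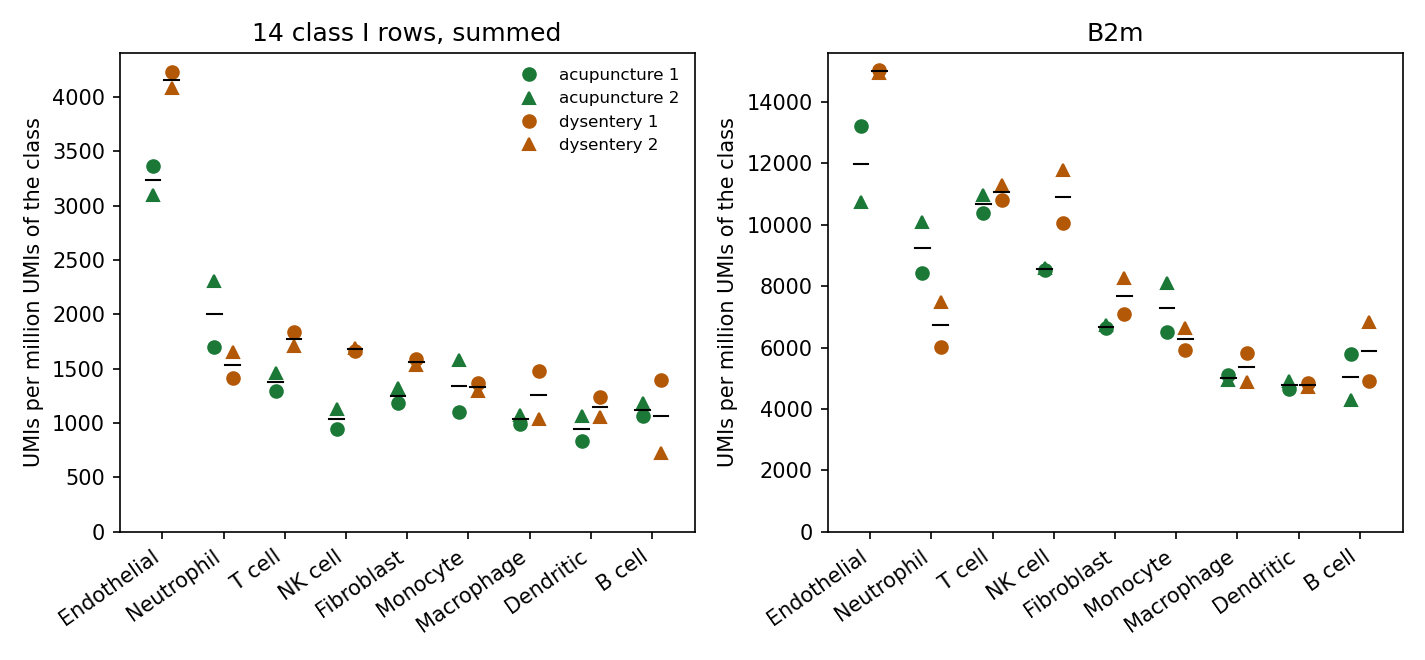
Summed level of the 14 class I rows (left) and level of B2m (right) in each class, in CPM within the class, with 1 point a library (circle or triangle for replicate 1 or 2) and a short bar at the group mean. Endothelial cells lie highest for the class I rows in all 4 libraries (3100 to 4228).

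T cells were also above fibroblasts in most class I rows. Against fibroblasts 21 of 31 members were called, 19 higher and 2 lower, where 70.7% of all genes were (30.7% higher, 40.0% lower). Of 13 class I rows 10 were higher, led by RT1-CE11 (3.65 ± 0.13), RT1-T24-4 (2.44 ± 0.43), RT1-N2 (2.29 ± 0.43) and RT1-CE15 (2.07 ± 0.16). RT1-S3 (-0.78 ± 0.12) and RT1-T24-1 (-1.42 ± 0.23) were lower, and RT1-CE16 was at -0.14 (adjusted p = 0.29). Nlrc5, the class I factor, was higher by 3.88 ± 0.19, Psmb9 by 2.01 ± 0.16 and Tap1 by 1.34 ± 0.12. Of the 7 class I partners 6 were higher, the other being Tapbp with 75 UMIs in all.

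In endothelial cells 4 of 22 members were lower in acupuncture and 0 higher, where 2.55% of all genes were called (1.62% higher, 0.925% lower). RT1-CE16 measured 910 and 1152 CPM in acupuncture against 1704 and 1514 in dysentery (-0.73 ± 0.16, edgeR adjusted p = 0.011). B2m measured 13207 and 10724 against 15051 and 14935 (-0.42 ± 0.11, adjusted p = 0.031). Psmb8 measured 521 and 414 against 704 and 729 (-0.72 ± 0.18, adjusted p = 0.030). Psmb9 measured 200 and 361 against 596 and 622 (-1.19 ± 0.22, adjusted p = 0.0020). Its UMIs numbered 38.3 per 100 Psmb8 UMIs in acupuncture 1 and 87.2 in acupuncture 2, against 84.65 and 85.4 in dysentery. The cause of the low ratio of acupuncture 1 was not tested. Over the 12 alternatives, which include leaving out acupuncture 1, the Psmb9 change ranged from -1.71 to -0.84. Psme1, a proteasome activator and no member, fell too, at 846 and 637 against 1125 and 1043 CPM (-0.65 ± 0.17, adjusted p = 0.044). In all 5 genes both acupuncture libraries lay below both dysentery libraries, which for called genes adds no support. The libraries held 117 and 185 endothelial cells against 51 and 83, at median depths of 2811 and 4087 UMIs against 7144 and 6723, and the part of depth was not tested. Without dysentery 1 none of the 4 members passed (0 called), and DESeq2 called 1 member. Over 12 alternatives B2m lost its call in 8 and Psmb8 in 9, RT1-CE16 in 2 and Psmb9 in 1.

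In NK cells all 24 members tested had a negative change, with a median of -0.78 against 0.01 over all genes, but 0 passed edgeR's test (0.785% of all genes did, 0.418% higher and 0.368% lower). At an unadjusted p under 0.05 there were 16, and DESeq2 called 2. RT1-CE16 came nearest, at 334 and 451 CPM against 723 and 706 (-0.92 ± 0.18, adjusted p = 0.056), followed by RT1-CE11 at 43.1 and 37.7 against 79.6 and 79.6 (-1.03 ± 0.23, adjusted p = 0.080). Tap1 measured 76.5 and 71.4 against 117 and 142 (-0.84 ± 0.21, adjusted p = 0.12). None of these 3 overlaps between groups, which describes the values and adds no support. NK cells numbered 85 and 86 in acupuncture and 359 and 132 in dysentery.

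Fibroblasts had 0 of 30 members called (1.64% of all genes, 1.31% higher and 0.326% lower; 1 member at an unadjusted p under 0.05, DESeq2 0). The 3 class I rows with the most UMIs, RT1-CE16, RT1-CE1 and RT1-S3, ranged in fibroblasts from 440 to 786, from 240 to 282 and from 251 to 317 CPM. RT1-CE16 (-0.52 ± 0.21, edgeR adjusted p = 0.25) and RT1-CE1 (-0.13 ± 0.12, adjusted p = 0.61) lay lower in both acupuncture libraries, and RT1-S3 overlapped. B cells had 0 of 22 called (0% of all genes; 0 at an unadjusted p under 0.05, DESeq2 0), and neutrophils 0 of 23 (0.0533%; 4 unadjusted, DESeq2 0). RT1-N2 entered the group test in fibroblasts alone (-1.40 ± 0.64, edgeR adjusted p = 0.30), RT1-M2 in macrophages alone (-1.17 ± 0.83, adjusted p = 0.46) and Tapbp in no class. RT1-M10-1, RT1-M3-1, RT1-N3, RT1-CE2, RT1-CE14, RT1-CE15, Nlrc5, Tap1 and Tap2 had 0 calls between groups in the classes where they were tested. In neutrophils the 5 highest cells held 90.0% of the class II chain UMIs in acupuncture 1 and 60.4% in dysentery 1.

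Acupuncture 1 differed from the other 3 libraries in the balance between rows. In macrophages RT1-Bb UMIs numbered 2.79 per 100 RT1-Ba UMIs in acupuncture 1, against 77.7 in acupuncture 2 and 72.7 and 86.6 in dysentery. In dendritic cells they numbered 2.97 against 76.5, 71.2 and 76.4, and over all kept cells 2.95 against 78.3, 73.0 and 81.7. The low value is thus not particular to a class. Psmb9 UMIs numbered 28.8 per 100 Psmb8 UMIs over all kept cells, against 68.0, 68.1 and 64.6. Of the class I rows RT1-T24-4 and RT1-T24-1 in fibroblasts, RT1-T24-4 made up 56.1% of their sum in acupuncture 1 and 5.21%, 6.78% and 4.33% in the others, while the sum was 144, 164, 160 and 173 CPM. In endothelial cells the share was 60.9% against 15.8%, 19.5% and 19.0%, but in T cells 69.5% against 59.5%, 64.4% and 61.8%. Among all genes, after adding 5 CPM, 3 were at least 1.5 log2 units higher and 4 lower in acupuncture 1 than in every other library in 2 or more of 5 classes. RT1-T24-4 was among the higher and RT1-Bb among the lower, and the other libraries had 0 to 2 such genes. The cause was not tested.

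**Figure D5:**
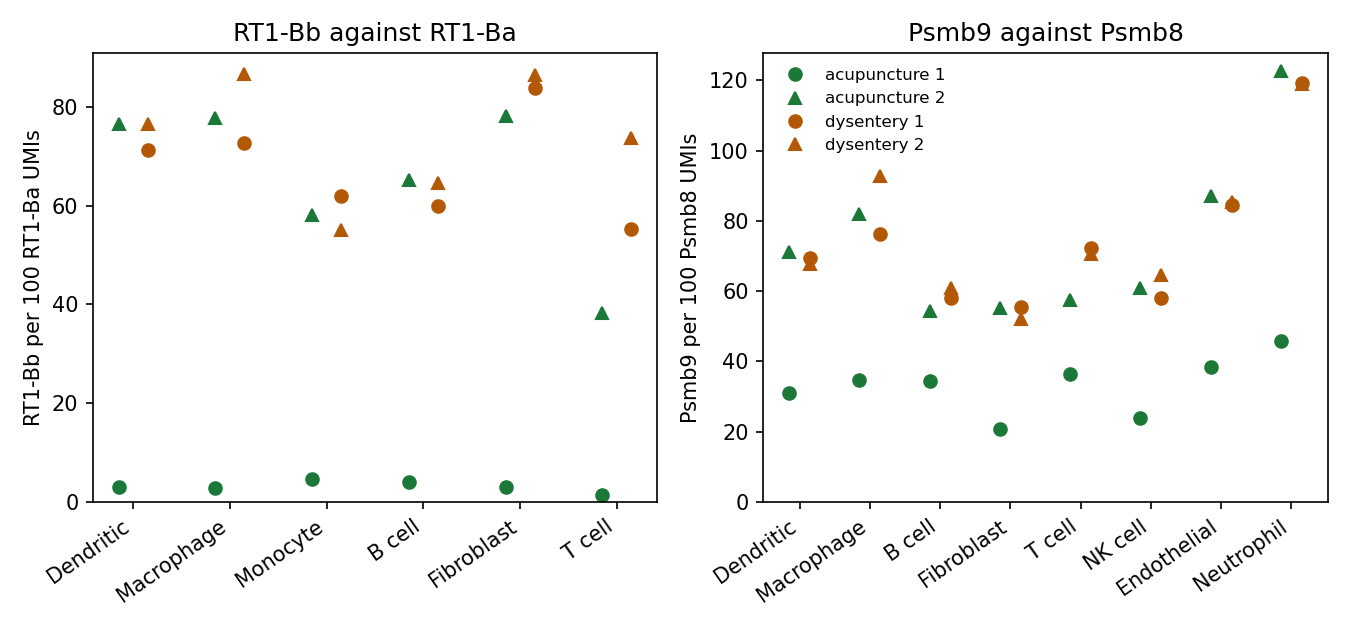
RT1-Bb UMIs per 100 RT1-Ba UMIs (left) and Psmb9 UMIs per 100 Psmb8 UMIs (right) in each class, with 1 point a library. Acupuncture 1 lies lowest in every class shown, for example at 2.79 against 72.7 to 86.6 in macrophages on the left.

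The other genes of the pathway, which are no members, were counted by list. In macrophages 3 of 12 tested genes around interferon gamma and Il10 were higher in acupuncture and 0 lower, where 2.52% of all genes were called higher and 1.16% lower. Socs3, a brake on cytokine signals, measured 646 and 754 CPM against 145 and 134 (2.45 ± 0.14, edgeR adjusted p = 0.0057). The anti-inflammatory cytokine Il10 measured 595 and 735 against 67.1 and 135 (2.83 ± 0.35, adjusted p = 0.022), and Stat3 rose by 0.87 ± 0.12. Neither Socs3 nor Il10 overlaps between groups, which for called genes adds no support. Of the 16 tested genes of the class II route 1 rose, the cathepsin inhibitor Cst3, at 8646 and 7969 against 5290 and 5192 CPM (0.79 ± 0.13, adjusted p = 0.039). Class I loading (10 tested) and costimulation (7 tested) had 0 calls in macrophages.

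In dendritic cells 3 of 6 costimulation genes rose and 0 fell, where 5.47% of all genes were called higher and 1.70% lower. The maturation marker Cd83 measured 937 and 1024 CPM against 226 and 189 (2.28 ± 0.12, edgeR adjusted p = 1.3e-05), with Tnfsf9 (1.86 ± 0.38) and Cd80 (0.86 ± 0.21) beside it. Of the 12 genes around interferon gamma and Il10, 4 rose: Socs3 (1.87), Irf1 (1.82), Socs1 (1.28) and Stat3 (0.76). Irf1, which acts in turning on MHC genes, measured 84.1 and 108 against 37.8 and 18.8. The class II route (16 tested) and class I loading (10 tested) had 0 calls in dendritic cells. Il10 was also higher in T cells, at 20.0 and 16.3 against 4.03 and 3.70 CPM (2.22 ± 0.31, edgeR adjusted p = 0.0090). In fibroblasts Il10 measured only 3.19 and 4.66 against 0.430 and 0.411 CPM (3.24 ± 0.38, adjusted p = 0.028). That is far below its macrophage level of 595 and 735 against 67.1 and 135. Whether this RNA came from the fibroblasts themselves was not tested. Irf1 also rose in fibroblasts (1.53 ± 0.19, adjusted p = 0.032). Socs1 (1.51 ± 0.24) and Cd83 (0.93 ± 0.18) rose in T cells, with adjusted p of 0.015 and 0.030. Socs3 also rose in T cells (1.66), endothelial cells (1.48), fibroblasts (2.23) and NK cells (1.27), so that it was higher in acupuncture in 6 of the 8 classes tested.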

How the data were processed

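Whole numbers of UMIs per gene and cell barcode, 1 matrix a library, were deposited as counts. Per the submitters' processing notes, Cell Ranger 6.0.1 and STAR were used, and the builds mRatBN7.2 and GRCh38.p13 are named without a role. Cells with at least 300 genes, 500 UMIs and at most 20% mitochondrial UMIs were kept, and doublets (0.8% per 1000 cells, scanpy 1.11.5) were removed. A cell joined a class when it passed 1 gate of 4 to 7 marker genes, with the 3 dendritic gates counted as 1. Cells that passed the T and NK gates and no other joined the T class. These minimums were set from the marker counts per cell after the files were seen. UMIs were summed per class and library (at least 30 cells) and tested with edgeR 4.0.16 in R 4.3.3 (TMM, filterByExpr minimum 10, quasi-likelihood, Benjamini-Hochberg at 0.05 over all genes). DESeq2 1.42.0 was an alternative. The test scripts were checked on simulated data with log2 changes of 2 in 200 genes, for macrophages, dendritic cells and fibroblasts. In macrophages 96.5% of the changed genes were recovered, with 15 false calls. Smaller changes were not simulated. Full values are given for members called in a class, class II rows, Cd74, Ciita, B2m and the 3 class I rows with the most UMIs, and for pathway genes only where called. The members and lists were chosen with earlier results of these data known. RT1 genes vary between strains and were counted on 1 reference, so reads may be lost or split between near-identical rows, and overlapping or antisense genes were not told apart.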

Additional observations from a re-analysis of the deposited data

Results flagged for a closer look

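For 7 genes the change with acupuncture differed between dendritic and macrophage cells by a test of that difference (edgeR, interaction of group and class). The change in dendritic cells minus that in macrophages was 1.35 for RT1-Da, 1.46 for RT1-Db1, 1.34 for RT1-Ba and 1.47 for RT1-Bb on the log2 scale. For the partners it was 1.29 for Cd74 and 1.31 for Ciita, and for the exchange factor RT1-DOa 1.46. In the macrophage class the share of cells without Cd163 was 10.4% and 11.5% in acupuncture and 45.8% and 42.0% in dysentery, and its part in these differences was not tested.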

How the results depend on the processing

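No called group change, called difference of changes or summed level changed direction. Some members not called did. In Cd163-positive macrophages without Napsa and Flt3, RT1-DMa was at 0.25 and RT1-DMb at 0.26, against -0.47 and -0.50 in the whole class. Over the alternatives, 124 values of counts and summed levels stayed close to the reported ones and 43 moved. In macrophages (5 called) the count was 1 in Cd163-positive cells without Napsa and Flt3, 8 by DESeq2, 0 with doublets kept, 12 with no filter on low counts and 0 to 9 with 1 library left out. In T cells (6 called) it was 1 with 1 fewer marker, 2 with doublets kept, 13 with no filter and 8 to 10 with 1 library left out. In endothelial cells (4 called) it was 1 by DESeq2, 2 without TMM, 2 at a mitochondrial limit of 10%, 8 with no filter and 0 to 7 with 1 library left out. In NK cells (0 called) it was 1 with 1 more marker, 2 by DESeq2, 2 with doublets kept, 10 with no filter and 0 to 6 with 1 library left out. With 0 called at first, fibroblasts gave 5 with doublets kept and 0 to 7 with 1 library left out, dendritic cells 0 to 8, B cells 0 to 1, and neutrophils 1 with no filter and 0 to 4. The macrophage and fibroblast changes differed for 0 to 9 members with 1 library left out, and those of dendritic cells and macrophages for 7 to 9. The most calls came without acupuncture 2 in dendritic cells (8), NK cells (6) and endothelial cells (7), without either acupuncture library in T cells (10), without dysentery 2 in fibroblasts (7), and without dysentery 1 in macrophages (9), neutrophils (4) and for the macrophage and fibroblast difference (9). A library left out leaves a lone sample assumed to vary like the others. The difference in the share of macrophages with a Cd74 UMI was -31.35 percentage points when thinned and -20.64 unthinned. The log2 ratio of class II chains between groups in T cells was -2.42 with doublets kept and -0.46 with 1 fewer marker. The requirement of 1 fewer marker and the Cd163-positive cells were chosen after seeing the data. The causes were not tested.

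The replicate numbers are only shared numbers: deviations of same-numbered libraries correlated at 0.13 in fibroblasts, -0.06 in macrophages, 0.01 in dendritic cells and 0.05 in T cells. With the replicate block 0 members were called in macrophages, 1 in dendritic cells, 4 in NK cells, 9 in T cells, 5 in endothelial cells and 0 in fibroblasts, B cells and neutrophils.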
